A study of Rattus norvegicus with 6 samples.

Results

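The craniofacial homeobox and paired factors are transcription factors outside the Hox clusters that pattern the mesenchyme of the head. They were taken as 45 gene symbols, matched exactly to the rows of a table of 20653 genes. Of the 45, 42 had a row with at least 1 read, and Barx2, Otx2 and Pitx3, which found none, were not analysed here. RNA was sequenced from primary mesenchymal stem cells of the nasal mucosa of SD rats in 2 groups, 3 libraries named EMSC and 3 named NPS-EMSC. Per the series title, NPS-EMSC were made to overexpress neuropeptide S, a short neuropeptide with a G protein-coupled receptor of its own, for use after spinal cord injury. The labels name neither a control vector in EMSC, nor the promoter of the transgene, nor separate cultures or animals behind the 3 libraries of a group. What the transfer of the gene or the choice of cells did and what neuropeptide S did therefore cannot be told apart, and p-values measure the spread between these libraries, which may be technical.

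Most connective tissue of the face and front of the skull comes from the cranial neural crest, whose cells migrate into the frontonasal region and the pharyngeal arches. Crest cells that form the face lack Hox expression and take their position instead from nested domains of Dlx, Msx, Alx, Pax and related genes, set up by endothelin, BMP, FGF and Hedgehog signals. Homeodomain proteins bind short DNA sequences built on a TAAT core and often act in pairs with TALE homeodomain partners such as Meis and Pbx proteins. Mesenchymal cells taken from the adult face can keep part of this code.

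The libraries held 39082245 to 40261205 counted reads, and 0.324% to 0.334% of them lay in the 42 genes. Nps, which encodes the precursor of the overexpressed peptide, had 77014 to 93566 reads in the NPS-EMSC libraries and 0 to 10 in the EMSC libraries, as the labels say. Log expression of libraries correlated at 0.989 to 0.990 within a group and at 0.935 to 0.943 between groups, across genes. The 11 mesenchymal markers summed to 7730 to 8210 FPKM in EMSC and 7900 to 8410 in NPS-EMSC, and all 11 passed the test (adjusted p under 0.05, edgeR): 7 rose, among them Nt5e (log2 fold change 2.16) and Thy1 (1.55), and 4 fell, among them Pdgfra (-0.95) and S100a4 (-1.18). Of all tested genes 59.3% passed, 29.5% lower and 29.7% higher, a share to set beside each count of markers. The neural crest markers summed to 105 to 109 FPKM in EMSC and 57 to 59.7 in NPS-EMSC. Of 8 tested, 6 fell, among them Snai1 (-1.27), Snai2 (-2.21) and Ngfr (-2.87), and 2 rose, Tfap2a (1.32) and Ets1 (0.37). Sox10 and Foxd3 had only 7 and 9 reads over the EMSC group and 6 and 22 over NPS-EMSC, while Tfap2b fell from 76.8 to 48.2 CPM and Nes from 12.2 to 6.08 CPM. Leukocyte markers summed to 44.2 to 52.9 FPKM in EMSC and 7.14 to 8.91 in NPS-EMSC, glial markers to 13.4 to 13.8 against 2.76 to 3.27, and epithelial markers, led by Krt8 and Krt18, to 2.22 to 2.49 against 6.19 to 7.82. Of the tested markers 7 of 8 leukocyte genes fell and 1 rose, 2 of 3 glial genes fell, and 2 of 2 epithelial genes rose. Ptprc, the common leukocyte antigen, had 94 reads over EMSC and 1 over NPS-EMSC, and Epcam, which defines epithelium, had 4 in each group. Krt5, an epithelial marker that was not tested, went the other way from Krt8 and Krt18. It had 7, 3 and 18 reads in the EMSC libraries and 0 in each NPS-EMSC library. Olfactory neuron lineage markers summed to 34.2 to 37.5 FPKM in EMSC and 11.4 to 11.8 in NPS-EMSC. Of 4 tested, Stmn2 (-2.01) and Ncam1 (-0.70) fell, Tubb3 (1.31) rose and Gap43 did not pass, while Omp, which defines mature olfactory neurons, had 4 and 3 reads. Endothelial markers summed to under 1 FPKM in every library. The part of these markers in the results on head factors was not tested. In bulk RNA, fewer cells of a type and less RNA per cell cannot be told apart.

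Promoters are shown for 4 members on which the results turn. Prrx1 and Prrx2 are paralogs with the highest levels of the set that moved in opposite directions, and Six2 and Alx1 are frontonasal genes that fell. Each sequence is the 250 bases before the annotated start, 5′ to 3′ on the gene's strand, from RefSeq on rat assembly GRCr8. Capitals mark TAAT on either strand (TAAT or ATTA), and the motif TGACAG of TALE proteins, also searched on both strands, had no match in them.
Prrx1 (chr13:78204074-78204323, minus strand): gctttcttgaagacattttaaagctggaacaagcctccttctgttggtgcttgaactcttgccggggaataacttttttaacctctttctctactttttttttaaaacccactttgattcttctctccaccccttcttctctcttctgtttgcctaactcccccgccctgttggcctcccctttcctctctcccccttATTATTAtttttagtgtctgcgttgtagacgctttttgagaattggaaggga
Prrx2 (chr3:34530081-34530330, plus strand): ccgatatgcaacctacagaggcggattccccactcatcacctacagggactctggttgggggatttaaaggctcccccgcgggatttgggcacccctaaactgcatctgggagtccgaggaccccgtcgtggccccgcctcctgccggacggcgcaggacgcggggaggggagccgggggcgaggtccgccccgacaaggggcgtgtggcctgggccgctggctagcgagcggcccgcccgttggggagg
Six2 (chr6:14727808-14728057, plus strand): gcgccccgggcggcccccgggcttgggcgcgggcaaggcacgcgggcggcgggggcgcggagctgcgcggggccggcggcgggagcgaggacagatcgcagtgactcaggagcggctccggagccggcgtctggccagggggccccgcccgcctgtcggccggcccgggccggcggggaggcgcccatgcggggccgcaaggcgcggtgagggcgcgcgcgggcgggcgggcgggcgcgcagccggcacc
Alx1 (chr7:40063779-40064028, minus strand): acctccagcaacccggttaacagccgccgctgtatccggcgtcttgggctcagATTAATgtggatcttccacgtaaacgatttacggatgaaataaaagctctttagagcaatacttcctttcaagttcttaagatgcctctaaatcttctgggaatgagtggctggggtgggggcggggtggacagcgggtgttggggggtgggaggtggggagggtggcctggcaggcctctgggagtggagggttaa
The Prrx1 stretch was AT-rich, with 43.2% G and C and 4 CpG dinucleotides, and held 2 overlapping TAAT cores whose first bases lay 52 and 49 bases before the start. The Prrx2 stretch had 70.0% G and C, 23 CpG and no TAAT. Six2 had the highest content of the 4, at 86.0% with 45 CpG and no TAAT, and Alx1 had 54.8% with 10 CpG and 2 overlapping TAAT cores, at 197 and 195 bases before the start. RefSeq promoters were found for 26 of the 45 members. Over windows from 250 bases before to 50 after the start, their 28 entries had a median of 65.0% G and C and 18.5 CpG, against 51.7% and 7.0 over all 33469 promoters. A TAAT core lay in the window of 10 of the 26 members (38.5%) and in 60.6% of all promoters, and TAATTA, which contains TAAT on both strands, in 0 of 26 and 5.36%. TAATCC, the form preferred by Otx and Pitx proteins, which also contains TAAT, occurred in 1 of 26, Meis3, against 7.17% of all promoters, and TGACAG in 2 of 26, Pax6 and Tshz1, against 19.0%. Members were counted by gene, with a match in any entry, and all promoters by entry, so these shares have unlike units. The part of the higher G and C content of the member windows in these shares was not tested. Such matches are descriptions of sequence, not binding sites.

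The cells had a head mesenchyme code dominated by Prrx1. On the FPKM scale, which corrects for gene length and allows genes to be compared, Prrx1 stood at 369.7 ± 12.8 (SD, n = 3) in EMSC and ranked 171st of 14505 tested genes. Prrx2 followed at 236 FPKM, then Alx1 at 48.3, Six2 at 45.3, Msx1 and Tshz2 at 25.4 each, Pax9 at 23.7 and Irx3 at 21.7 FPKM. In all, 14 tested members had an EMSC mean of at least 10 FPKM, 13 lay between 1 and 10, and 7 lay under 1. Dlx genes, the classical code of the jaw arches, were low throughout, and the 6 of them together made 2.18 to 2.60 FPKM in an EMSC library. Hox genes were nearly silent in EMSC, with a summed level of 0 to 0.0248 FPKM over 22 genes, against 1.09 to 2.06 in NPS-EMSC.

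Of the 34 members that passed the low-count filter, 21 were called at an adjusted p under 0.05 in edgeR's quasi-likelihood test, or 61.8%, which is near the 59.3% called among all tested genes. The calls were uneven in direction: 18 members fell and 3 rose, where 29.5% of all tested genes fell and 29.7% rose. The median fitted log2 fold change (NPS-EMSC minus EMSC, also called log2 difference here and given with its standard error, SE) was -0.30 over the 34 members and -0.0048 over all tested genes. The size of the difference regardless of sign had a median of 0.33 (log2) in the members and 0.34 in all genes. A fitted change of at least 2-fold was called in 3 members, Dlx5, Dlx6 and Irx1, and in 14.8% of all genes. The 3 members that rose were Prrx1, Msx1 and Pax3. Groups did not overlap in 21 of the 34 members, against 64.7% of all tested genes. Of these members 18 were lower and 3 higher, where 32.3% of all tested genes did not overlap and were lower and 32.4% were higher. The plot of all tested genes with the members marked below them shows this leftward placement.

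**Figure D1:**
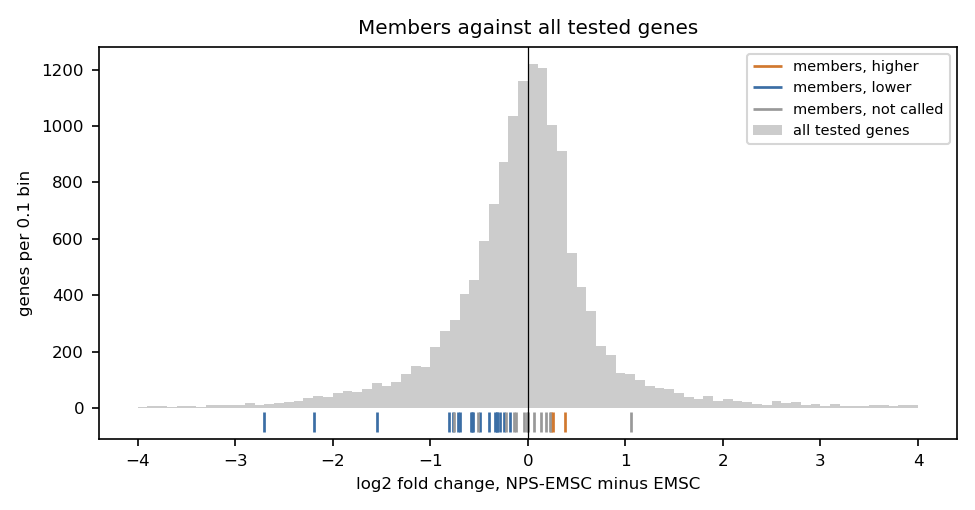
Histogram of log2 fold changes (NPS-EMSC minus EMSC, x axis, shown from -4 to 4) of all 14505 tested genes (y axis, genes per bin of 0.1), with 1 tick for each of the 34 tested members coloured by call. Ticks of the 18 members called lower lie left of 0, and the 3 called higher lie close to it on the right.

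Among genes that pattern the jaw arches, 5 of 11 tested members fell (45.5%) and 1 rose (9.09%), against 29.5% and 29.7% of all tested genes. Dlx5 and Dlx6, neighbouring genes that specify the lower jaw, had the largest fitted changes of the set. Dlx5 had 69, 71 and 58 reads in EMSC and 2, 11 and 11 in NPS-EMSC, or 1.63 ± 0.157 against 0.206 ± 0.134 CPM (SD, n = 3; adjusted p = 1.64e-05, log2 difference -2.71, SE 0.46). Dlx6 had 44, 60 and 52 reads against 11, 12 and 5, a log2 fold change of -2.19 (SE 0.45, adjusted p = 1.96e-04). No NPS-EMSC library reached the lowest EMSC library in either gene. Both genes were rare transcripts, near 1 FPKM or under it in EMSC. An RNA on the strand opposite to Dlx6 is known, and it is not given whether the counting used strand, so its reads cannot be told apart from those of Dlx6.

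Dlx1 and Dlx2, which act throughout the arches, and Dlx3 and Dlx4, which mark their tips, gave few reads. Dlx2 had 26, 24 and 20 reads in EMSC and 12, 23 and 10 in NPS-EMSC, and its log2 fold change of -0.51 had a 95% interval from -1.49 to 0.47 (adjusted p = 0.367). Dlx1 (24 reads over EMSC and 19 over NPS-EMSC), Dlx3 (7 and 12) and Dlx4 (8 and 4) were not tested.

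Pax9, a paired-box gene of the tooth and palate mesenchyme, and Barx1, a homeobox gene of the molar field, fell by similar amounts. Pax9 stood at 89.1, 89.6 and 96.7 CPM in EMSC and at 58.2, 55.6 and 53.3 CPM in NPS-EMSC (adjusted p = 2.13e-11, log2 difference -0.72, SE 0.05). Barx1 had 24.8, 22.6 and 21.4 CPM against 13.9, 14.3 and 14.3 CPM (adjusted p = 4.04e-07, log2 difference -0.70, SE 0.09). Lhx6, a LIM homeobox gene of the oral jaw mesenchyme, fell from 12.4 ± 1.26 to 8.39 ± 0.344 CPM (SD, n = 3; adjusted p = 3.22e-04, log2 difference -0.56). In all 3 genes every EMSC library lay above every NPS-EMSC library. Lhx8, which acts with Lhx6 in the jaw, did not pass, with a 95% interval of the log2 fold change from -0.31 to 0.77, and the same held for Pax1, a relative of Pax9 (-0.46 to 0.18), and Gsc, a homeobox gene of the lower jaw and ear ring (-0.78 to 0.54).

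Msx1, a BMP-responsive homeobox gene of arch and tooth mesenchyme, went the other way. It had 44.7, 43.0 and 44.3 CPM in EMSC and 52.4, 52.7 and 50.7 CPM in NPS-EMSC (adjusted p = 1.09e-03, log2 difference 0.24, SE 0.06). The groups did not overlap, but the fitted rise was 1.18-fold. Its paralog Msx2 was rare, at 16 to 39 reads in EMSC and 11 to 34 in NPS-EMSC, and did not pass (adjusted p = 0.713).

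**Figure D2:**
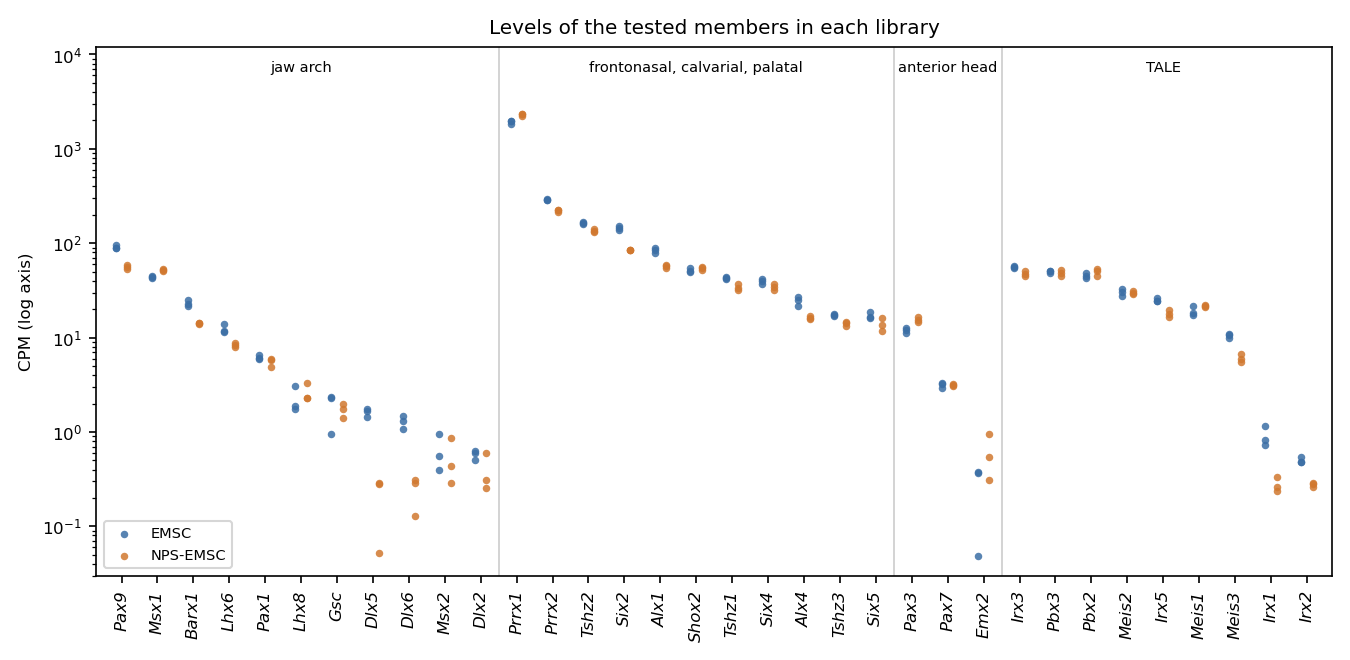
CPM (y axis, log scale) of the 34 tested members (x axis, by region of action and then by EMSC level) in 3 EMSC and 3 NPS-EMSC libraries, 1 point a library. Prrx1 lies at 1827 to 2324 CPM, and the Dlx, Msx2, Irx1 and Irx2 points lie under 2 CPM.

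Of 11 tested genes of the frontonasal, calvarial and palatal mesenchyme, 9 fell (81.8%), 1 rose (9.09%) and 1 did not pass. Among all tested genes 29.5% fell and 29.7% rose. Six2, a homeobox gene of frontonasal and kidney progenitors, had the smallest p of the set. Its level was 150.4, 144.1 and 138.5 CPM in EMSC and 85.6, 84.1 and 85.2 CPM in NPS-EMSC (adjusted p = 5.64e-13, log2 difference -0.76, SE 0.05). The 3 NPS-EMSC libraries thus lay close together and far below the EMSC libraries. Alx1, an aristaless-related gene required for the midface, stood at 79.4, 84.8 and 87.9 CPM against 54.6, 57.0 and 58.3 CPM (adjusted p = 1.98e-09, log2 difference -0.57, SE 0.05). Alx4, its relative in the skull vault, stood at 21.7, 25.0 and 26.8 CPM against 16.3, 15.9 and 16.7 CPM (adjusted p = 6.07e-06, log2 difference -0.58, SE 0.09). The ratio of Alx1 to Alx4 reads was 3.45 ± 0.194 in EMSC and 3.47 ± 0.116 in NPS-EMSC (SD, n = 3), so it moved by less than the spread between libraries.

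The teashirt genes Tshz1, Tshz2 and Tshz3, zinc finger and homeobox genes that act in palate and ear development, fell by like amounts. Tshz2, the most abundant, went from 164.5 ± 3.99 to 135.4 ± 4.96 CPM (SD, n = 3; adjusted p = 1.20e-05, log2 difference -0.28, SE 0.05). The log2 fold changes of Tshz1 and Tshz3 were -0.34 and -0.32, and groups did not overlap in any of the 3 genes. Six5 and Six4, paralogs of Six2, were called with log2 fold changes of -0.32 (adjusted p = 0.0172) and -0.18 (adjusted p = 0.0317). Six4 libraries overlapped, at 36.6 to 41.3 CPM in EMSC and 32.0 to 36.8 in NPS-EMSC. The call of Six4 was lost without EMSC replicate 1 (adjusted p = 0.118), EMSC replicate 3 (0.0681), NPS-EMSC replicate 2 (0.159) or NPS-EMSC replicate 3 (0.0744), and that of Six5 without EMSC replicate 1 (0.0826) or NPS-EMSC replicate 3 (0.139). Over all alternatives the adjusted p ranged from 0.0117 to 0.159 for Six4 and from 2.05e-03 to 0.139 for Six5. Shox2, a homeobox gene of the palate, did not pass, at 49.9 to 54.1 CPM against 51.6 to 56.5 (95% interval of the log2 fold change -0.06 to 0.19).

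The paired-related genes Prrx1 and Prrx2, which are broadly active in head and limb mesenchyme and partly redundant there, moved apart. Prrx1 had 1827, 1958 and 1975 CPM in EMSC and 2319, 2241 and 2324 CPM in NPS-EMSC (adjusted p = 4.39e-05, log2 difference 0.26, SE 0.05). Prrx2 had 294.1, 284.6 and 288.6 CPM against 213.2, 223.6 and 222.4 CPM (adjusted p = 1.91e-08, log2 difference -0.40, SE 0.04). Neither gene's groups overlapped. On the length-corrected scale their summed level stayed within 598.1 to 616.3 FPKM over all 6 libraries, while the share of Prrx1 in that sum was 59.4%, 61.9% and 61.7% in EMSC and 72.0%, 70.3% and 71.1% in NPS-EMSC. The ratio of Prrx1 to Prrx2 reads, which no scaling between libraries touches, was 6.64 ± 0.376 in EMSC and 10.45 ± 0.427 in NPS-EMSC (SD, n = 3). The 42 genes together summed to 938.3 to 958.0 FPKM in EMSC and 863.5 to 875.0 in NPS-EMSC.

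**Figure D3:**
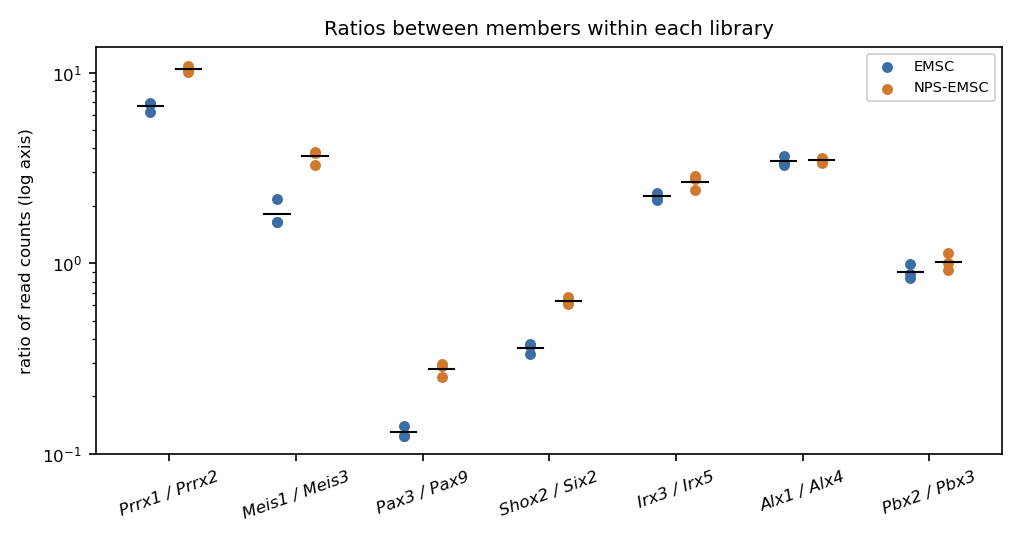
Ratio of the read counts of 2 members within each library (y axis, log scale) for 7 pairs, 1 point a library and a line at the group mean. The Prrx1 / Prrx2, Meis1 / Meis3, Pax3 / Pax9 and Shox2 / Six2 ratios of the groups lie apart, and those of Alx1 / Alx4 and Pbx2 / Pbx3 overlap.

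Genes of the anterior head, eye and placodes were mostly at or under the limit of counting. Pax3, a paired-box gene of the neural crest and of muscle precursors, was the exception and rose, from 12.5, 11.2 and 12.0 CPM to 14.7, 16.4 and 15.4 CPM (adjusted p = 3.11e-03, log2 difference 0.38, SE 0.10). The groups did not overlap. Its paralog Pax7 had 2.94 to 3.31 CPM in EMSC and 3.08 to 3.26 in NPS-EMSC and did not pass (95% interval of the log2 fold change -0.42 to 0.42). The ratio of Pax3 to Pax9 reads was 0.130 ± 0.00924 in EMSC and 0.278 ± 0.0223 in NPS-EMSC (SD, n = 3). Emx2, a homeobox gene of forebrain and limb girdle, had 2, 15 and 15 reads against 21, 12 and 37, and its log2 fold change of 1.05 did not pass (95% interval -0.10 to 2.21, adjusted p = 0.109).

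Pax6, the eye and olfactory placode gene, had no read in EMSC and 6 in each NPS-EMSC library. Set against a floor of 3 reads over the EMSC group, its level of only 0.155 CPM was 6.29-fold higher. The 95% counting interval of the Pax6 ratio, taken without the floor, began at 4.61 and had no upper limit. Otx1, a gene of forebrain and sense organs, had 2, 1 and 4 reads against 5, 6 and 9. Pitx1, a gene of jaw and hindlimb, had 2 reads over EMSC and 23 over NPS-EMSC, a ratio of 12.1 (95% counting interval 2.98 to 106), and 15 of the 23 lay in NPS-EMSC replicate 3. Lhx9 had 2 and 24 reads, a ratio of 12.6 (3.12 to 110), and 19 of the 24 lay in NPS-EMSC replicate 1. Lhx2, a gene of the eye field, had 8, 0 and 0 reads against 1, 5 and 9. None of these 5 genes was tested, the intervals cover counting error only, and raw reads did not overlap in Pax6 and Otx1 alone. Of all genes left out by the filter, 5.16% did not overlap and were higher in NPS-EMSC and 5.9% were lower. The untested members of the list of other head homeobox and paired genes had 18 reads over EMSC and 120 over NPS-EMSC, over 15 genes. Of these 15 genes 9 had no read in EMSC and 2 none in NPS-EMSC. Of all 20653 genes 1484 had no read in EMSC and 1231 none in NPS-EMSC.

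The TALE factors split by family. Iroquois genes, which pattern skull, heart and neural tissue, were lower: Irx1, Irx3 and Irx5 fell and Irx2 did not pass. Irx5, linked to craniofacial development in humans, went from 24.5, 26.3 and 24.5 CPM to 16.4, 17.8 and 19.4 CPM (adjusted p = 3.47e-05, log2 difference -0.49, SE 0.09). Irx3, its neighbour, went from 56.3 ± 1.22 to 47.6 ± 2.83 CPM (adjusted p = 1.13e-03, log2 difference -0.24, SD, n = 3). Irx1 had 48, 33 and 29 reads against 9, 10 and 13 (adjusted p = 5.44e-03, log2 difference -1.55, SE 0.46). Irx2, next to Irx1, had 20, 22 and 19 reads against 11, 10 and 11, which did not overlap but did not pass (adjusted p = 0.181, log2 difference -0.76). In GRCr8 gene order no protein-coding gene lies between Dlx5 and Dlx6, Irx1 and Irx2, or Irx3 and Irx5 (0 genes between). The fitted change of each of these 6 genes was negative. The pairs Dlx1 and Dlx2, and Dlx3 and Dlx4, also had 0 genes between. Of these, Dlx2 did not pass, and Dlx1, Dlx3 and Dlx4 were not tested. Dlx3 had 7 reads over EMSC and 12 over NPS-EMSC, and Dlx4 had 8 and 4. Whether neighbouring genes move together was not tested.

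Meis and Pbx genes encode DNA-binding partners of other homeodomain proteins. Meis3 fell, from 10.01, 11.03 and 10.7 CPM to 5.88, 6.64 and 5.57 CPM (adjusted p = 1.21e-05, log2 difference -0.81, SE 0.13). Meis1 and Meis2 did not pass, with 95% intervals of the log2 fold change from -0.0043 to 0.38 and from -0.17 to 0.15. Without EMSC replicate 1, the highest Meis1 library of its group, Meis1 was called higher (adjusted p = 0.0147, log2 difference 0.29, over all alternatives 0.0147 to 0.315). The ratio of Meis1 to Meis3 reads was 1.82 ± 0.309 in EMSC and 3.64 ± 0.309 in NPS-EMSC (SD, n = 3). Pbx2 and Pbx3 did not pass, at 45.1 ± 2.99 against 49.4 ± 4.35 CPM and at 50.02 ± 1.19 against 48.5 ± 3.63 CPM (SD, n = 3), with intervals from -0.01 to 0.27 and from -0.17 to 0.09. Pbx2 was called higher without EMSC replicate 3 (adjusted p = 0.0490) or NPS-EMSC replicate 3 (0.0253), in a range of 0.0253 to 0.467.

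**Figure D4:**
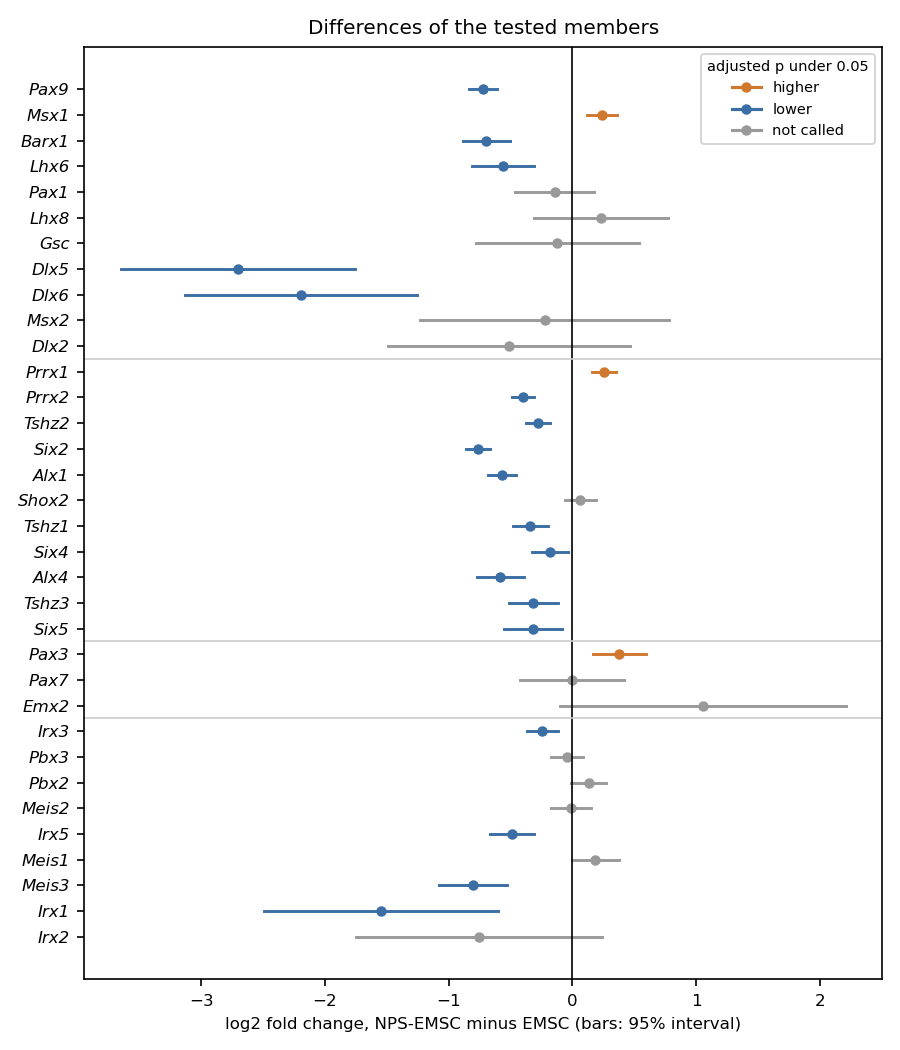
Fitted log2 fold change (x axis, NPS-EMSC minus EMSC) with its 95% interval for the 34 tested members (y axis, in the order of the plot of levels), coloured by call. Dlx5 at -2.71 and Dlx6 at -2.19 lie farthest left, and the intervals of Shox2, Meis2 and Pbx3 span 0 narrowly.

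Partners and signals around these factors were read from the same fit. The counts below stand against 29.5% of all tested genes that fell and 29.7% that rose. Of 6 tested genes on the list of partners of Six2 and its relatives, which includes Eya coactivators and Dach corepressors, 4 fell and 2 rose. Eya4 went from 62.8 to 28.8 CPM (adjusted p = 6.19e-12, log2 difference -1.12, SE 0.08), and Eya1 from 167.3 to 137.8 CPM (log2 difference -0.28). Dach1 rose from 0.477 to 2.97 CPM (adjusted p = 1.80e-06, log2 difference 2.52, SE 0.36). Among partners of LIM homeodomain proteins 7 of 9 fell and 0 rose. The adaptor gene Ldb2 fell from 19.9 to 4.77 CPM (log2 difference -2.05, SE 0.13), and the LIM-only gene Lmo4 from 120.7 to 76.6 CPM (log2 difference -0.66), while Ldb1, the main adaptor, did not pass (adjusted p = 0.123, log2 difference -0.09). Of 10 partners of TALE factors 4 fell (40%) and 3 rose (30%), the latter near the share of all tested genes. Pknox2, a Meis relative, fell with a log2 fold change of -1.30, and Pbxip1, which encodes a Pbx-binding corepressor, rose by 0.56.

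Signals upstream of the arch code were lower in several cases. Of 18 tested arch signals and effectors 11 fell (61.1%) and 4 rose (22.2%), against 29.5% and 29.7% of all tested genes. The endothelin pathway induces Dlx5 and Dlx6 in the arches. Its ligand gene Edn1 fell from 7.01 to 4.33 CPM (adjusted p = 8.59e-04, log2 difference -0.69). The receptor gene Ednra fell from 126.6 to 79.7 CPM (adjusted p = 6.79e-10, log2 difference -0.67, SE 0.06). Ece1, on the same list, rose from 296.9 to 336.8 CPM (adjusted p = 9.99e-04, log2 difference 0.18), and Plcb3 did not pass (adjusted p = 0.141). Whether the endothelin pathway bears on Dlx5 and Dlx6 in these cells was not tested. Mef2c, a transcription factor gene of the same pathway that also acts in muscle and vessels, rose from 17.0 to 68.7 CPM (log2 difference 2.01, SE 0.07). Of 15 BMP ligands, antagonists and direct targets 9 fell (60%) and 2 rose (13.3%). Bmp4, an inducer of Msx1 in tooth mesenchyme, fell from 70.1 to 37.9 CPM (adjusted p = 1.76e-12, log2 difference -0.89, SE 0.06), and Bmp5 from 97.2 to 12.1 CPM (adjusted p = 2.07e-22). The BMP antagonist gene Grem1 rose from 3779 to 6969 CPM (log2 difference 0.88, SE 0.05). Msx1 rose in these same libraries, as given above. Of 9 tested genes on the list of other head homeobox and paired genes 4 rose (44.4%) and 3 fell (33.3%). En1 rose from 7.21 to 15.5 CPM (log2 difference 1.10).

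**Figure D5:**
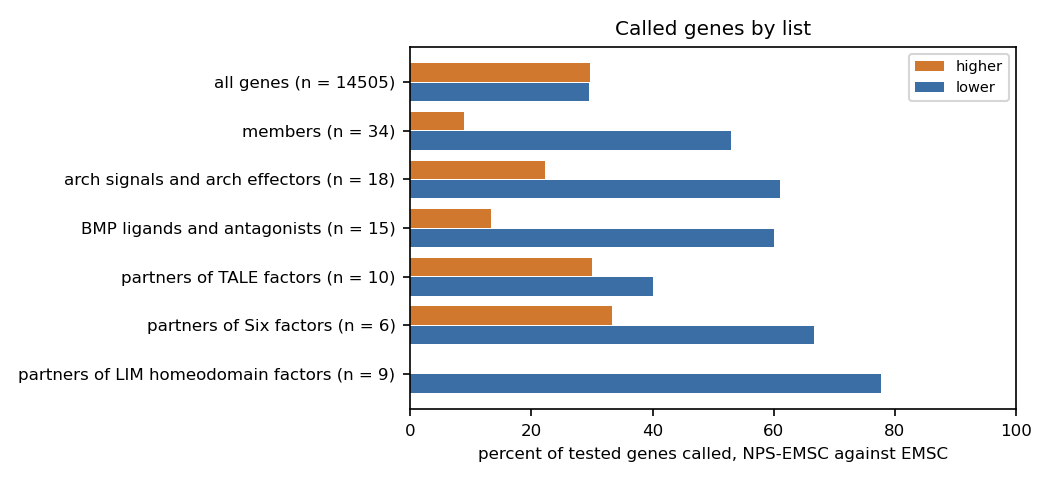
Percent of the tested genes of each list that were called higher or lower in NPS-EMSC (x axis, adjusted p under 0.05), with the number tested beside each list (y axis). Members were lower in 52.9% and higher in 8.82%, against 29.5% and 29.7% of all tested genes.

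By level, 9 of the 14 members with at least 10 FPKM in EMSC fell (64.3%) and 2 rose (14.3%). Of the 5550 tested genes at that level 31% fell and 38.4% rose. Of the 13 members between 1 and 10 FPKM 7 fell (53.8%) and 1 rose (7.69%). Among all genes at that level 32.4% fell and 26.3% rose. Of the 7 members under 1 FPKM 2 fell (28.6%), which is near the 22.1% of all genes at that level. None of the 7 rose (0), against 21% of all genes at that level. For members averaging 10 CPM or more in EMSC, libraries of a group varied by a median of 4.64% (coefficient of variation, EMSC) and 4.56% (NPS-EMSC) over 23 genes, with maxima of 12.0% for Meis1 and 16.4% for Six5.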

How the data were processed

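Bulk RNA sequencing libraries of rat nasal mucosa mesenchymal stem cells were compared, 3 EMSC against 3 NPS-EMSC, grouped by the cell type label. Raw read counts per gene were deposited by the authors and used as whole numbers, and the deposited FPKM values equalled these counts divided by the column total and 1 fixed length per gene for all 20653 genes (within 0.1%). FPKM was used for levels between genes and in 3 alternatives. Tools in the submitters' processing notes are R 3.2.0, DESeq, StringTie, HTSeq, HISAT2 and fastp, without their roles. Build, annotation and strand setting: not given in the sources used here.

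Genes were tested with edgeR 4.0.16 in R 4.3.3 (glmQLFit, robust, and glmQLFTest) after TMM scaling and filterByExpr (minimum count 10, total 15), leaving 14505 genes, with Benjamini-Hochberg adjustment over all of them. CPM used TMM-scaled totals. Log2 fold changes had a prior count of 2, and SE is the absolute change divided by the square root of F, a rough guide for rare genes. Intervals are 95%. The members, the gene lists and the rule for named genes (all members, up to 4 called genes with the smallest p and known partners per other list) were chosen with earlier results of these data known. Some genes of the other lists are counted but not reported here by name. Bmp4, Ece1, Edn1, Grem1, Plcb3 and the single cell type markers lie outside that rule and, like the ratios and the promoters shown, were chosen after values were seen. The procedure was tested on simulated data. Alternatives were limma-voom (limma 3.58.1), DESeq2 1.42.0, upper-quartile and RLE factors, other filters, log2(FPKM + 1) and log2(FPKM + 0.1), a threshold of 0.01, a block for the replicate number, and fits without 1 library each. Replicates of a group differed by more than sampling noise. None of the 17 names of opposite-strand RNAs listed matched a row.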

Additional observations from a re-analysis of the deposited data

How the results depend on the processing

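Over 17 alternatives no member changed direction with a call (0 of 563 values), 549 kept their side of the threshold, 10 lost a call, all of Six4 or Six5, and 4 gained one, in Irx2, Meis1 and Pbx2. The members called lower numbered 16 to 18 and those called higher 3 to 4 in every alternative, and the genes called in all 7121 to 8914. Leaving out 1 library gave 16 to 18 lower and 3 to 4 higher members and 7870 to 8341 genes in all. The 21 calls all remained with RLE or upper-quartile factors, without the filter, with the replicate number as a block, and with DESeq2 or limma-voom. Same-numbered libraries of the groups deviated together with correlations of -0.039, 0.046 and 0.036, so the numbers gave no sign of pairing, and with the replicate block 8588 genes, 3 higher and 18 lower members were called. On log2(FPKM + 1) the changes of rare genes shrank, to -0.89 for Dlx5, and, without a filter, to -0.46 for Dlx6 and -0.18 for Irx1. Upper-quartile scaling moved the median of all genes to -0.04. Depth limits the Dlx, Msx2, Gsc, Emx2, Irx1 and Irx2 results, which rest on under 100 reads a library.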
